A study of Mus musculus with 232 samples.

Results

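GC-adult is the name the authors gave to 1 of the clusters in a single-cell RNA atlas of the mouse dentate gyrus, and its members were taken from the cluster column of the deposited cell table. It holds 2613 of the 24185 cells of the table. Of these, 150 came from P18, 272 from P19, 17 from P23, 45 from P120 and 2129 from P132. No cell of the earlier ages (E16.5, P0 and P5) carries the name. The juvenile ages were male CD-1 mice (P18 and P23) and female C57Bl/6 mice (P19). The adult ages were hGFAP-GFP mice, whose GFP transgene is under the promoter of human GFAP, pooled as 2 males and 1 female (P120) and as 3 males and 1 female (P132). Cells of the hGFAP-GFP mice were sorted for GFP, a fluorescent protein, and those of the other lines were not. Mouse line, sorting and stage cannot be told apart in any comparison of adult with juvenile ages. All cells came from microdissected tissue dissociated with papain and were captured on the 10X Chromium kit, version 2. Animals were pooled at each age, and the age was the unit of replication. P132 was captured in 2 libraries (1122 and 1007 GC-adult cells) and the other ages in 1 each. The libraries of P19 and P120 carry the same run prefix in their cell names.

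Granule cells are the principal neurons of the dentate gyrus. They receive the perforant path from the entorhinal cortex, fire sparsely, and send mossy fibres to CA3. They are born mostly after birth and pass through immature stages, and the transcription factor Prox1 and the calcium buffer calbindin are used to recognise them. The atlas divides mature granule cells into GC-juv and GC-adult.

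GC-adult made up 9.21% of the granule cells (GC-adult and GC-juv together) at P18, 27.5% at P19, 1.54% at P23, 90.0% at P120 and 94.6% at P132. The adult mean was 92.3% ± 3.27 (SD, n = 2 ages) and the juvenile mean 12.7% ± 13.3 (SD, n = 3 ages). The adult and juvenile shares did not overlap, with an exact permutation p of 0.2, the smallest that this design allows (two-sided). The juvenile ages still hold 439 GC-adult cells, and P19 had a higher share than the older P23. GC-adult was 55.6% of all cells at P132 and 3.30% at P120, although both were sorted hGFAP-GFP samples.

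**Figure D1:**
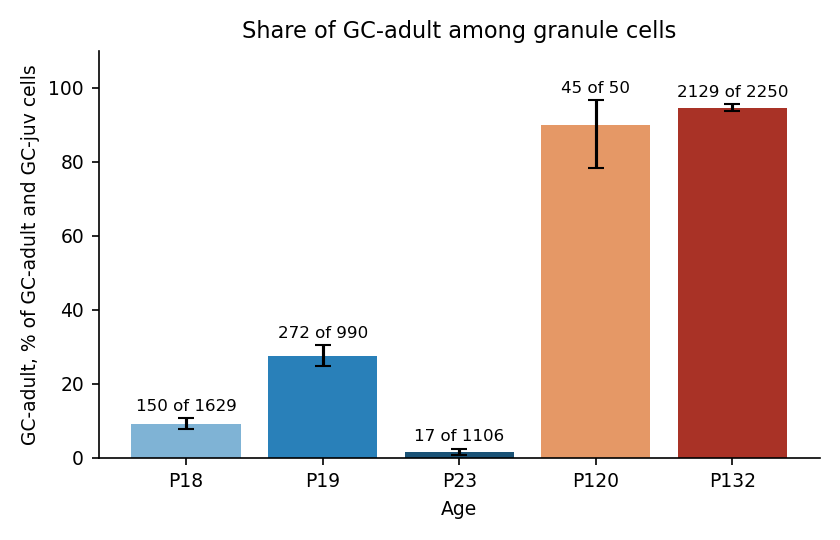
Share of GC-adult among GC-adult and GC-juv cells at each age, in percent. Bars are shares, whiskers exact (Clopper-Pearson) 95% intervals that cover counting error only, and the numbers are cells; P120 and P132 stand at 90.0% and 94.6%, and no juvenile age is above 27.5%.

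Counts are unique molecular identifiers (UMIs), and levels below are UMIs per 1000000 (CPM) in the summed cells of a cluster at 1 age. The median GC-adult cell had 2092.5 UMIs at P18, 2546 at P19, 4282 at P23, 3473 at P120 and 1952 at P132. At each age it had fewer UMIs than the median GC-juv cell. Mitochondrial transcripts were a median of 11.6%, 9.37%, 6.48%, 2.32% and 7.96% of a GC-adult cell's UMIs at these ages, so that P120 stood apart. Of the 2609 barcodes in GC-adult, 113 also occurred in another library, 4 of them as GC-adult in both.

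Markers named for GC-adult were compared with GC-juv first, as a description without a test, because the clusters were drawn on these cells. Plk5, a kinase-like gene of neurons (chr10:80356459-80365489, GRCm38), stood at 22.4, 51.7, 141.6, 100.2 and 65.5 CPM in GC-adult at P18, P19, P23, P120 and P132. GC-juv had 14.2, 13.8, 58.0 and 20.8 CPM at P18, P19, P23 and P132. Ntng1, which encodes the axonal adhesion protein netrin-G1 (chr3:109780040-110144011), had 73.5, 129.8, 170.0, 469.8 and 229.0 CPM in GC-adult. In GC-juv it had 34.9, 46.5, 91.0 and 110.1 CPM at P18, P19, P23 and P132. Both genes were thus higher in GC-adult at each of these 4 ages.

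The other markers went the opposite way. Calb1, which encodes calbindin, was at 552.7, 428.6, 354.1 and 320.4 CPM in GC-adult at P18, P19, P23 and P132, and at 768.1, 578.4, 734.3 and 604.0 CPM in GC-juv. Icam5, which encodes the dendritic adhesion protein telencephalin, was at 265, 290.4, 254.9 and 200.5 CPM in GC-adult against 315, 313, 311 and 226 CPM in GC-juv. So 2 of the 4 markers separate GC-adult from GC-juv upwards and 2 downwards, and calbindin does not set GC-adult above GC-juv in these counts. At P120 GC-juv had 5 cells and was not compared.

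**Figure D2:**
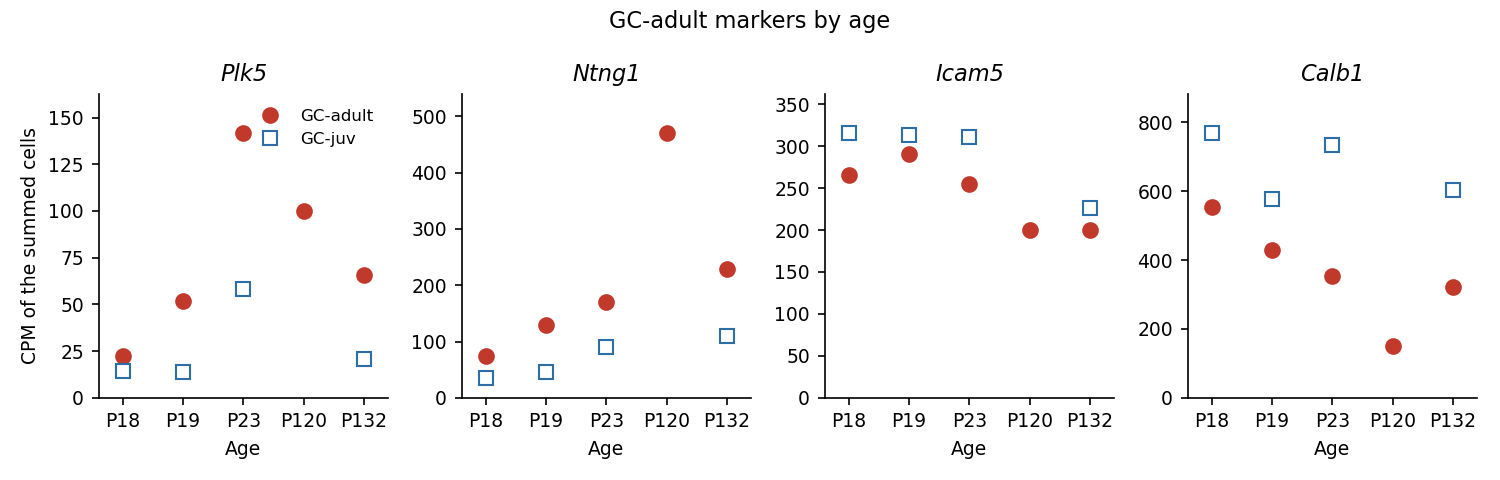
Levels of the 4 GC-adult markers in the summed cells by age, in CPM, with GC-adult as filled circles and GC-juv as open squares (5 GC-juv cells of P120 left out). Plk5 and Ntng1 lie above GC-juv at all 4 ages shown for both, and Icam5 and Calb1 below it.

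Granule cell markers were then set against the rest of the tissue. Among the 15 clusters with 20 or more cells at P132, GC-adult ranked first for Plk5, Ntng1, C1ql2, C1ql3 and Stxbp6, and second, after GC-juv, for Icam5, Calb1, Tdo2, Dsp and Synpr. For Prox1 it had rank 3, at 476.8 CPM, after GC-juv (723.0) and Immature-GC (628.4). Markers of other cell types were summed as well. The 7 astrocyte markers came to 453.7, 449.5, 496, 614 and 464 CPM in GC-adult at P18, P19, P23, P120 and P132, and to 371.0, 380.4, 364 and 369 in GC-juv at P18, P19, P23 and P132, lower at each of these ages. Most of the sum was Slc1a2, at 297.0 to 444.7 CPM, and Aqp4 was between 0 and 18.8. In GC-adult the 6 oligodendrocyte markers to between 244 and 368, the 4 interneuron markers to between 94.0 and 184, and the 6 microglial markers to between 12.5 and 70.8. Gfap itself was at 9.58, 9.77, 0, 6.26 and 18.2 CPM at P18, P19, P23, P120 and P132. With every cell thinned to 1000 UMIs, 2.02% of GC-adult and 63.3% of astrocyte cells of P132 had a Gfap UMI, at median depths of 1952 and 1736.5 UMIs before thinning. The sorted adult GC-adult cells thus had endogenous Gfap far below astrocytes, at P132 above the unsorted P18 and P19 cells. The levels at P18, P19, P23 and P120 rest on few UMIs, so that the order of the ages is uncertain. The count table holds no gene for the GFP transgene.

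Genes that set GC-adult at P132 apart from the highest of the 12 clusters other than GC-juv and Immature-GC, among them the precursor clusters RGL and Neuroblast, were led by Rasl10a, a Ras-like small GTPase. It had 511.6 CPM against 67.5 in the next cluster, a ratio of 6.73 after 10 CPM were added to both. Slc30a3, the transporter that loads zinc into the vesicles of mossy fibres, had 268.8 against 54.0 CPM. C1ql3, a secreted synaptic organiser, had 1051 against 292.5 CPM, and Bcl11b, a granule cell transcription factor, 486.6 against 153.0 CPM. Ahcyl2 (713.0 CPM), Tubgcp2 (105.4), Stxbp6 (517.5), Calb1 and the non-coding Gm10605 (209.6) and Gm16105 (102.0) completed the 10 highest ratios. GC-juv of P132 had more of Ahcyl2 (1062 CPM), Bcl11b (618.8), Calb1 (604.0) and Tubgcp2 (133.9). It had less of Rasl10a (270.7), Slc30a3 (226.1), C1ql3 (1006), Stxbp6 (360.0), Gm10605 (157.7) and Gm16105 (32.7). The ranking thus does not set GC-adult apart from GC-juv. Rasl10a had 428, 538.9, 566.5, 570.0 and 511.6 CPM at P18, P19, P23, P120 and P132, whereas C1ql3 had 600.6, 670.1 and 580.7 CPM at the juvenile ages and 1140.0 and 1051 at the adult ones. C1ql3 did not pass the stage test described below (log2 difference 0.83 ± 0.27 SE, edgeR adjusted p = 0.238).

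Within an age GC-adult and GC-juv cells come from the same pooled animals, libraries and sort, so that both share line and sort. Whether the sort at P132 kept cells of both clusters alike was not tested. Levels were set side by side, as a description, at P18, P19 and P132, the ages with 20 or more cells of both clusters. The description covered 1959 genes with a mean of 100 CPM or more in either cluster. Of these, 339 (17.3%) were higher and 650 (33.2%) lower in GC-adult at all 3 ages. At a fold of 1.5 or more at all 3 ages, 16 (0.817%) were higher and 17 (0.868%) lower. The median log2 ratio over all 1959 genes was -0.06.

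Among the genes higher in GC-adult, Bhlhe41, a circadian and activity-linked transcriptional repressor, had 472.8, 287.6 and 85.1 CPM in GC-adult at P18, P19 and P132 and 67.8, 70.5 and 23.8 in GC-juv. Its log2 ratio was 2.00 ± 0.58 (SD, n = 3 ages), and it was largest at P18. Pdcd4, an inhibitor of translation initiation, had 527, 484 and 288 CPM against 171, 179.6 and 125. Rgs4, a brake on G-protein signalling, had 137, 109 and 66.9 CPM against 57.4, 52.0 and 8.93. GC-juv of P132 held 164484 and 171628 UMIs in its libraries, so that its low values, as of Rgs4, rest on few UMIs. Spry2, an inhibitor of receptor tyrosine kinase signalling, had 342, 173 and 37.8 CPM against 64.6, 64.9 and 17.9. Arpp21, Marf1, Myef2, Tmf1 and Cbx3, which encodes a heterochromatin protein, completed the 10 with Ntng1. Arpp21 was the 1 gene of the 10 that was not higher at P23 (212 against 294 CPM, from 17 GC-adult cells).

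The 10 genes named as lower in GC-adult included Camk4, Itpr1 and Cotl1. Camk4, a nuclear calcium and calmodulin dependent kinase, had 67.1, 72.6 and 18.7 CPM in GC-adult at P18, P19 and P132 and 145, 166 and 89.3 in GC-juv. Itpr1, a calcium release channel of the endoplasmic reticulum, had 38.3, 75.4 and 77.4 CPM against 103, 145.5 and 232. Cotl1, an actin-binding protein, had 16.0, 15.4 and 64.6 CPM against 58.0, 67.7 and 193. Inf2, a formin, and Tubb2b, a tubulin of young neurons, were lower as well, by mean log2 ratios of -1.31 ± 0.33 and -1.05 ± 0.27 (SD, n = 3 ages). Cnih3, an auxiliary subunit of AMPA receptors, had the steadiest ratio, -0.85 ± 0.02. Hectd2, Selm, Hrk and Trim2 were the others of the 10.

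**Figure D3:**
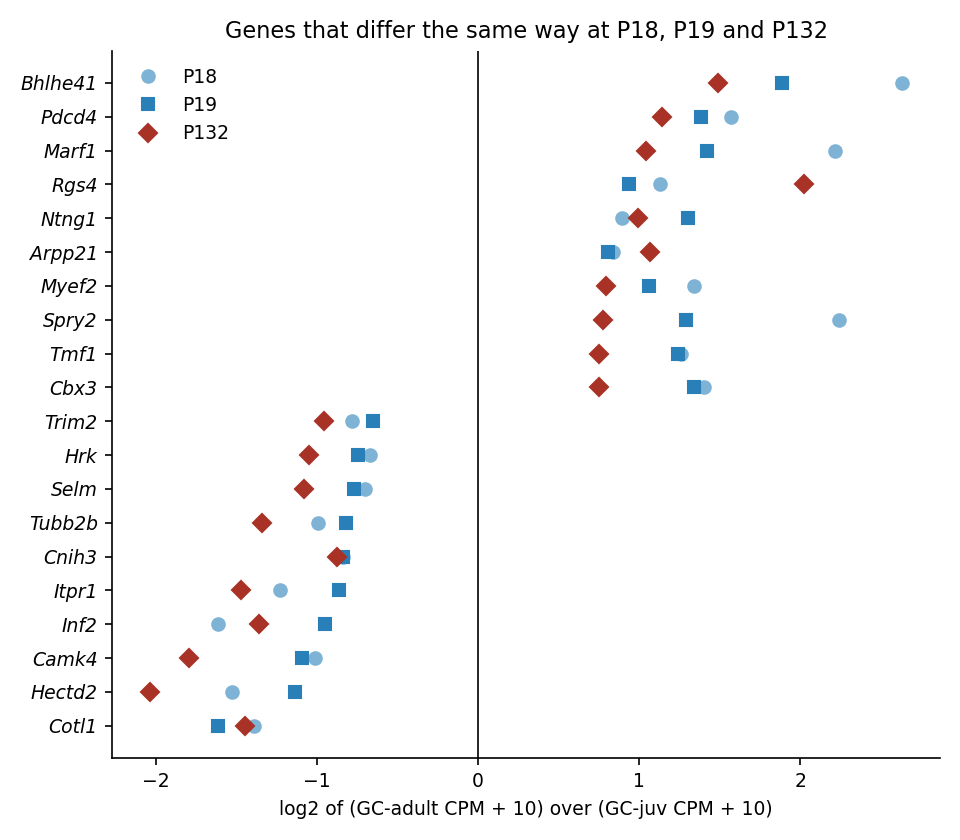
Log2 ratio of GC-adult over GC-juv, each with 10 CPM added, at P18, P19 and P132 for the 20 genes named by the same rule. Each symbol is 1 age; the 10 upper genes lie right of 0 and the 10 lower genes left of 0 at all 3 ages.

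Gene groups were described by how many of their members at 100 CPM or more lay on the same side of 0 at all 3 ages, to be read against the 17.3% and 33.2% of all genes. All 3 such AMPA receptor subunits, Gria1, Gria2 and Gria3, were lower in GC-adult, and so were the 3 AMPA auxiliary subunits Cnih2, Cnih3 and Shisa9, with a median mean log2 ratio of -0.58. Gria1 had 470.0, 512 and 493 CPM in GC-adult and 610, 709 and 637 in GC-juv. Of 11 postsynaptic scaffold genes, 8 were lower and 1 was higher. Shank1 was at 60.7, 82.4 and 146 CPM against 127, 166 and 205 in GC-juv. Of 25 calcium signalling genes 10 were lower, among them Camk2a (1029, 1311 and 891 CPM against 1547, 1777 and 1532) and Hpca, which encodes hippocalcin (137, 324 and 328 against 289, 506 and 872), and 2 were higher. Of 22 cytoskeleton and axon growth genes 10 were lower and 4 higher. The counts for calcium signalling and cytoskeleton are not far from the share of all genes.

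Of the transcription factors of the granule lineage 10 of 17 were lower and 2 higher. Neurod2, a neuronal differentiation factor, had 211, 264 and 267 CPM in GC-adult at P18, P19 and P132 and 349, 402 and 518 in GC-juv. Prox1 had 469.6, 495.6 and 476.8 CPM against 578, 647 and 723. Exceptions were Nfia (837, 634 and 277 against 335, 359 and 247) and Sox11 (134, 147 and 107 against 112, 96.7 and 74.4). The receptor for mineralocorticoids, Nr3c2, was lower too (121, 127 and 109 CPM against 168, 203 and 300.5).

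Neuropeptide and secretory granule genes went the other way by this count, with 5 of 8 higher and 0 lower. The sum over all 19 genes of the list did not. It was 2764, 2720 and 2374 CPM in GC-adult at P18, P19 and P132 against 2388, 2683 and 2538 in GC-juv, and so lower at P132. Scg2, which encodes secretogranin II, had 211, 222 and 152 CPM in GC-adult against 150.4, 158 and 92.2 in GC-juv. Chgb had 256, 195 and 103 CPM against 163, 158 and 80.3, and Bdnf 208, 154 and 81.2 against 147, 136 and 68.4. Vesicle release genes were split, with 7 of 19 higher and 8 lower. Of 3 immediate early genes at this level, Jun and Jund were higher at all 3 ages. The nuclear RNA Malat1 was higher in GC-adult at each age, at 81701, 71708 and 60980 CPM against 67125, 53342 and 48859, and its part and that of the astrocyte markers, also higher in GC-adult at each age, in the group counts were not tested.

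Single GC-adult cells differed widely in Actb, the gene of the cytoskeletal protein β-actin (chr5:142903115-142906754, minus strand). In P132 cells thinned to 1000 UMIs the variance of Actb was at least 9.61 times its mean in both libraries, where the median over 1641 genes was 0.987. Only Malat1, at 12.6, was above it. Mitochondrial transcripts, Xist (the P132 pool holds both sexes), Cst3, Tmsb4x and Cbx3 made up the rest of the 10. The 5% of cells with most Actb held 36.8% of its UMIs.

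The share of cells in which Actb made up 1% or more of the UMIs was 36.7% of GC-adult cells at P18 (55 of 150), 39.3% at P19 (107 of 272), 52.9% at P23 (9 of 17) and 6.20% at P132 (of 2129 cells), and 9 of the 45 cells at P120 (95% exact interval 9.58% to 34.6%). In GC-juv it was 3.18%, 7.66%, 4.68% and 0.826% at P18, P19, P23 and P132. The range was set after the values were seen, and 24, 9, 5, 3 and 61 GC-adult cells lay near its edge, between 0.8% and 1.2%. The 2 libraries of P132 had 6.95% and 5.36%. Depth differed little between the ranges, with median UMIs of 2196 and 1997 at P18 and of 2312 and 2640 at P19 in cells at or above and below the edge. Interneuron markers summed to 118, 179 and 157 CPM in the cells at or above the edge at P18, P19 and P132 and to 82.2, 119.96 and 115 in the others, and were thus higher at all 3 ages. Astrocyte markers were lower at all 3 (346, 400.8 and 429 CPM against 519, 479.8 and 466). Microglial, CA3 pyramidal, oligodendrocyte and Immature-GC markers differed in direction between ages. The part of RNA from other cells in the ranges was not tested.

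**Figure D4:**
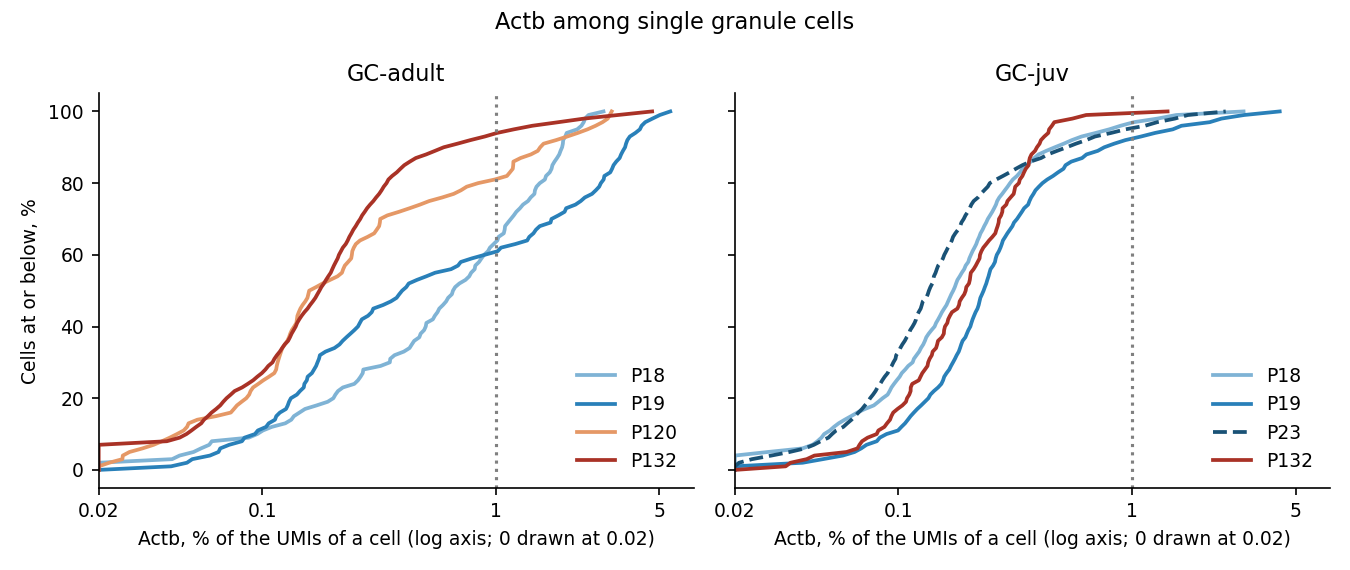
Cumulative share of cells by the percent of their UMIs that are Actb (log axis) in GC-adult (left) and GC-juv (right), 1 line per age with 20 or more cells. The dotted line marks 1%; in GC-adult 36.7% of P18 and 39.3% of P19 cells lie at or above it and 6.20% of P132 cells.

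Other genes were compared between the 2 ranges of GC-adult cells, a description without a test because they were cut on these cells. Of 1947 genes, 5 (0.257%) were 3-fold or more higher in the Actb-rich cells at P18, P19 and P132. Among them is Actb, which set the ranges, and the other 4 were Kdm6b, a histone H3 demethylase, Dpf1, a subunit of neuronal chromatin remodelling complexes, Gatad1, and the zinc transporter Slc39a1. Kdm6b had 186, 248 and 204 CPM in the Actb-rich cells at P18, P19 and P132 and 46.3, 49.8 and 36.9 in the others. Pam, which amidates neuropeptides, had 996, 539 and 476 CPM against 329, 104 and 71.5. Cbx3 had 1013, 1643 and 1764 CPM against 396, 312 and 224.

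Genes that marked GC-adult against GC-juv within an age fell into different ranges. Bhlhe41 was higher in the Actb-rich cells (625, 470.0 and 429 CPM against 380.3, 174 and 61.7), and so were Pdcd4, Marf1, Myef2, Spry2, Tmf1 and Cbx3. Ntng1 was lower there, with 8.44 CPM in the Actb-rich cells at P18 (1 UMI) and 61.9 at P19 (17 UMIs), against 113 and 172 in the remaining cells. At P132 Ntng1 was at 204 and 231 CPM in the 2 ranges. GC-juv cells with Actb under 1% had 35.2, 46.2 and 111 CPM. Rgs4 and Arpp21 were likewise lower in the Actb-rich cells at P18 and P19 (Rgs4 67.6 and 65.6 CPM against 179.9 and 135.8). At P18 Ntng1 was above GC-juv in the cells with less Actb and below it in the Actb-rich ones. These are 2 ranges of 1 measure, not cell types. Restricted to cells with Actb under 1%, 13 genes were 1.5-fold or more higher and 27 lower in GC-adult than in GC-juv at all 3 ages, where 16 and 17 were with all cells. Of the 20 named genes 9 then moved by more than the spread between ages. Smaller mean log2 ratios were those of Cbx3 (0.52), Myef2 (0.62), Tmf1 (0.79) and Pdcd4 (0.94), and at P19 Cbx3 stood at 312 against 243 CPM and Myef2 at 161 against 139. Ntng1 (1.38), Inf2, Cnih3, Tubb2b and Hrk were further from 0.

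Stage was tested next, in GC-adult cells of P120 and P132 against those of P18 and P19, with P23 left out because it had 17 cells. Of 6867 genes, 60 passed an adjusted p of 0.05 in edgeR's quasi-likelihood test (0.874%), 31 higher (0.451%) and 29 lower (0.422%) in adults. DESeq2 called 90, 68 of them higher and 22 lower. The median log2 difference over all genes was -0.02. The summed UMIs were 313006 at P18, 716293 at P19, 159644 at P120, and 2261812 and 2132122 in the libraries of P132, which were added. For the level of a gene in such a sum, fewer cells with the gene and less of its RNA per cell cannot be told apart. Mitochondrial transcripts took 11.8%, 9.505%, 2.52% and 8.12% of the summed UMIs at P18, P19, P120 and P132. The part of RNA quality in the calls was not tested.

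Several genes that fell in adults were those higher in the Actb-rich cells at P18, P19 and P132, whose share was smaller at the adult ages; the part of that share was not tested beyond the repeat without these cells given below. Spry2 fell from 342 and 173 CPM at P18 and P19 to 50.1 and 37.8 at P120 and P132 (log2 difference -2.58 ± 0.39 SE, edgeR adjusted p = 0.0212), with 269 at P23. Slc39a1 fell from 188 and 194 CPM to 50.1 and 30.04 (-2.44 ± 0.31, adjusted p = 0.00964), and Pam from 581 and 271 to 138 and 97.2 (-1.89 ± 0.39, adjusted p = 0.0446). The ages of the stages did not overlap for these genes. Ppm1h (495 and 282 to 106 and 71.7 CPM) and Bhlhe41 fell as well (Bhlhe41 473 and 288 to 138 and 85.1 CPM, -1.84 ± 0.36, adjusted p = 0.0340). Camk4, which was higher in the Actb-rich cells at P18 and P19 but not at P132, fell too (67.1 and 72.6 to 6.26 and 18.7, -1.93 ± 0.39, adjusted p = 0.0387). Its value at P120 is 1 UMI. In cells with Actb under 1% of UMIs the difference of Camk4 was -1.18 ± 0.52 (edgeR adjusted p = 0.483).

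Snhg11, a neuronal host transcript of small nucleolar RNAs, had 198 and 258 CPM at P18 and P19 and 75.2 and 16.6 at P120 and P132 (-3.14 ± 0.49, edgeR adjusted p = 0.0250). Ubb, a polyubiquitin gene, had 2128 and 1026 CPM against 313 and 380.1 (-2.12 ± 0.38, adjusted p = 0.0263); 50.3% of its 31-base words occur in other genes, so its counts are uncertain. Both genes fell in GC-juv as well. Snhg11 went from 104.5 and 161.2 CPM at P18 and P19 to 2.98 at P132, the last on few UMIs. Ubb went from 1981 and 1015 CPM to 336 there. Dbpht2 (594 and 356.0 to 125 and 101.05), Tmem181a, Chst2 and Snhg12 were the other genes named by the rule. Tubb2b fell from 160 and 134 CPM to 43.8 and 51.4 (-1.46 ± 0.30, adjusted p = 0.0387).

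Of the 10 named genes higher in adults the largest difference was in Gm8730 (chr8:102864845-102865798, minus strand), a processed pseudogene of Rplp0, the gene of a ribosomal stalk protein. Juvenile cells had 63.9 (P18), 85.2 (P19) and 56.7 CPM (P23), and adult cells 595 (P120) and 572 (P132) (2.997 ± 0.302, edgeR adjusted p = 0.00154). Rplp0 itself had 572, 749.7 and 892 CPM at the juvenile and 702 and 602 at the adult ages (0.02 ± 0.27, adjusted p = 0.997). The annotated transcripts are shown because they differ at 12 of 954 bases, so that counts of the 2 genes may be exchanged. No difference lies in the last 170 of the 954 bases. The annotated Rplp0 transcript has 1358 bases and runs on past the compared ones at its 3′ end, the end that this kit reads. That part of Rplp0 has no counterpart in the annotated Gm8730 and was not compared. The stretch of 120 compared bases with most differences, further upstream, holds 4 differences, in capitals. It is read 5′ to 3′ in the sense of each transcript from GENCODE vM21 (GRCm38).
Gm8730: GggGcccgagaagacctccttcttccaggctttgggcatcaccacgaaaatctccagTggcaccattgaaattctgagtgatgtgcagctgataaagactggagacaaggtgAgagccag
Rplp0: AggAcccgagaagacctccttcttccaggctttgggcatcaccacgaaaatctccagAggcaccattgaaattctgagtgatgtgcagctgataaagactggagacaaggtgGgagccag
The first stretch is chr8:102865290-102865409 on the minus strand. The second is coding sequence of Rplp0 in exons 4 and 5, at chr5:115561170-115561245 and chr5:115561333-115561376 on the plus strand.

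Of the UMIs of both genes together, Gm8730 took 10.1%, 10.2% and 5.97% in juvenile GC-adult cells (in order of age) and 45.9% and 48.7% in adult ones. The same shares were 9.90%, 11.3% and 6.26% against 46.9% at P132 in GC-juv, and 11.2%, 13.7% and 6.19% against 48.6% and 49.9% in astrocytes. The 3 classes of 1 age thus carried close shares, and the shares of the CD-1 and C57Bl/6 juveniles and of the hGFAP-GFP adults did not overlap. The summed level of both genes in GC-adult was 636, 835 and 949 CPM at the juvenile ages and 1297 and 1174 at the adult ones. An exchange of counts between the 2 genes was not tested. Gm8186, a pseudogene with all of its 31-base words in other genes, and PISD, a name not in the annotation used here, were among the named genes too (log2 differences of 1.79 ± 0.34 and 1.81 ± 0.34).

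Ribosomal protein genes were among the genes higher in adults. Rplp1 had 926.5, 1044 and 1671 CPM at the juvenile ages, in order, and 2969 and 3007 at the adult ones (1.65 ± 0.29, edgeR adjusted p = 0.0263). Rps10, Rpl14 and Rpl13a, and the elongation factor gene Eef1g (1.65 ± 0.28), were also among the 10. In a list of 78 ribosomal protein genes drawn up after the values were seen, which is therefore a description, 18 passed, all higher (0.451% of all genes did), 77 lay above 0, and the median log2 difference was 1.11. Together they took 6.85%, 7.29% and 9.27% of juvenile and 13.2% and 15.4% of adult GC-adult UMIs. GC-juv went from 6.76%, 6.80% and 8.90% to 12.9% at P132, and astrocytes from 4.39%, 3.796% and 4.55% to 5.11% and 6.91%. Many of these genes share sequence with pseudogenes, 75.1% of the 31-base words in the case of Rplp1.

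Mt2, a metal-binding metallothionein, was higher in adult GC-adult cells (22.4 and 32.1 against 87.7 and 114 CPM, 1.98 ± 0.34, edgeR adjusted p = 0.0263). Astrocytes had 1552 and 4128 CPM of it at P18 and P19 and 10407 and 8634 at P120 and P132, and 4 of 4 astrocyte markers tested were above 0 in the stage test of GC-adult (median log2 difference 0.81, highest 1.32), of which 0 passed. The part of RNA from other cells in the genes higher in adults was not tested. Cotl1 rose from 16.0 and 15.4 CPM to 62.6 and 64.6 (2.12 ± 0.40, adjusted p = 0.0308). Both genes were higher at P132 in GC-juv as well. Mt2 had 54.8 and 45.1 CPM there at P18 and P19 and 122 at P132, and Cotl1 58.0, 67.7 and 193.

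**Figure D5:**
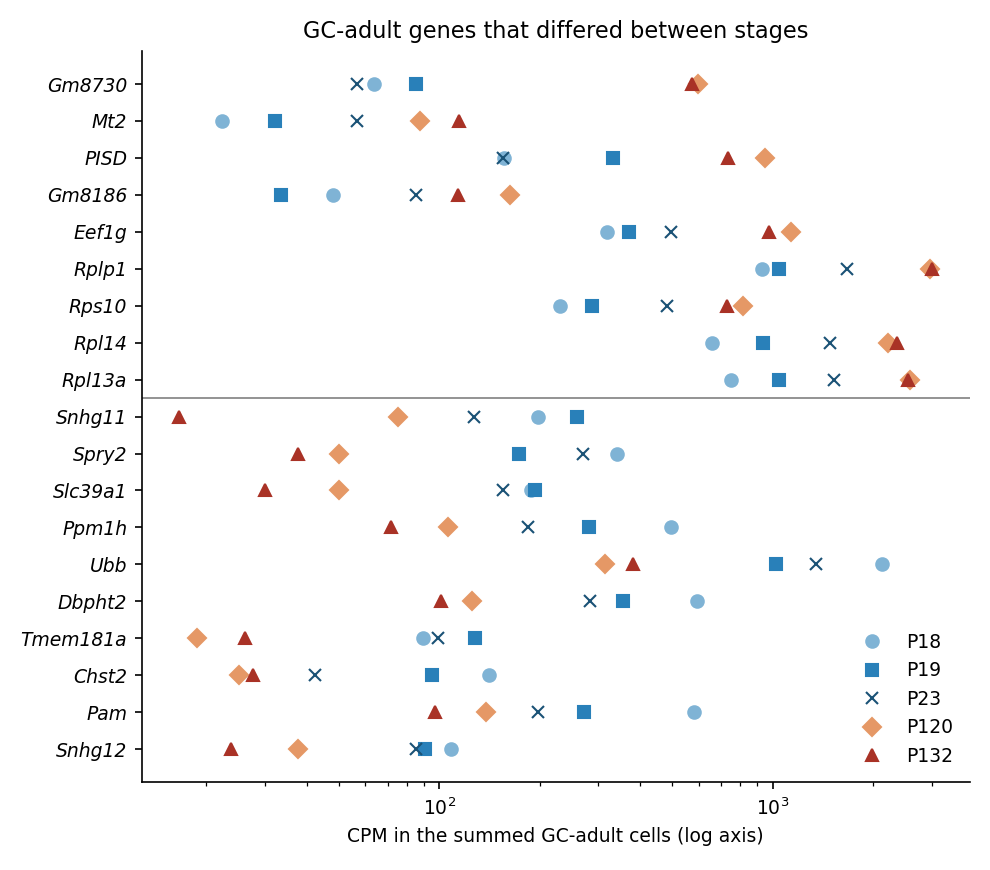
Levels in the summed GC-adult cells, in CPM on a log axis, for 9 genes higher (above the line) and 10 lower (below it) in adults that the rule names; each symbol is 1 age, and P23 was not in the test. Adult ages (triangle and diamond) lie right of P18 and P19 in the upper genes and left of them in the lower ones.

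None of the 4 GC-adult markers passed the stage test at an adjusted p of 0.05. Ntng1 came nearest, with 73.5 and 129.8 CPM at P18 and P19 and 469.8 and 229.0 at P120 and P132 (1.70 ± 0.37, edgeR adjusted p = 0.0524). Plk5 (0.96 ± 0.38, adjusted p = 0.396), Calb1 (-0.90 ± 0.35, adjusted p = 0.385) and Icam5 (-0.41 ± 0.27, adjusted p = 0.685) were further from the threshold. Of the 7 granule cell markers, 0 passed (0.874% of all genes did). Nfia had 837 and 634 CPM against 282 and 277 (-1.35 ± 0.29, adjusted p = 0.0524).

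Receptor, channel and synaptic lists held 0 or 1 called genes each, which at 0.874% of all genes sets none of them apart. Of 3 AMPA receptor subunits tested 0 passed, and their log2 differences lay between -0.14 and 0.20. Of 27 calcium signalling genes 1 passed, Camk4. Of 22 vesicle release, 20 postsynaptic scaffold, 30 adhesion and guidance, 27 potassium channel and 24 granule lineage transcription factor genes, 0 passed in each list, with median log2 differences of -0.03, -0.26, 0.04, 0.01 and -0.01. Of 9 immediate early genes 0 passed (median -0.58), and of 13 mitochondrial transcripts 0 passed (median -0.75). Of 25 cytoskeleton and axon growth genes 1 passed, Tubb2b.

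In cells with Actb under 1% of UMIs the stage test called 2 of 5413 genes, Gm8730 and Snhg11. Of the 60 genes called with all cells, 53 were tested there, 53 had the same direction and 41 a smaller difference. Spry2 had 283 and 77.0 CPM at P18 and P19 and 32.0 and 27.2 at P120 and P132 in those cells (-2.51 ± 0.54, edgeR adjusted p = 0.0701), and Pam -1.42 ± 0.46 (adjusted p = 0.261). For the ribosomal protein genes the median was 1.06 and 0 passed. Of these 5413 genes 537 had an unadjusted p under 0.05.

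Whether a stage difference in GC-adult was unlike that in another class of the same animals was tested as an interaction with age as a block. Against GC-juv, at P18, P19 and P132, 1 of 10669 genes passed (0.00937%), and that gene was Actb. It had 8706 and 11939 CPM in GC-adult at P18 and P19 and 3267 at P132, against 2514, 3931 and 2264 in GC-juv. The stage difference in GC-adult was thus lower by 1.10 on the log2 scale (-1.10 ± 0.10, edgeR adjusted p = 1.7e-07), in a fit with 1 residual degree of freedom. Both clusters were drawn on these same cells. The p-value does not carry this, and the part of the assignment of cells in the difference was not tested. DESeq2 called 1 gene as well, and without the replicate block 0 passed (206 at an unadjusted p of 0.05). P23 (9220 CPM) and P120 (5562) lay between the other ages in GC-adult and were not in this test. On simulated data this test recovered 6 of 100 genes with a log2 difference of 1 and 78 of 100 with one of 2. The simulation gave all genes the same set spread, not estimated from these data, so the rates here may differ. Genes that did not pass may still have unlike stage differences in the 2 clusters. The direct stage test of Actb in GC-adult did not pass (-1.19 ± 0.34, adjusted p = 0.169).

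Against astrocytes, at P18, P19, P120 and P132, 92 of 9300 genes passed (0.989%), 52 with a higher (0.559%) and 40 with a lower (0.43%) stage difference in GC-adult. DESeq2 called 1 gene, and edgeR called 1 without the replicate block. The astrocyte sums join Astro-juv and Astro-adult (77 and 733 cells at P132). The part of their mix at each age in the astrocyte stage difference was not tested. Much of the difference lay in the astrocyte sums. Hecw1 had 144, 129.8, 157 and 131 CPM in GC-adult at these ages and 23.2, 7.78, 0 and 1.37 in astrocytes (3.83 ± 0.89, edgeR adjusted p = 0.00365). Lrrtm4, a postsynaptic organiser, and the non-coding Miat were alike in this (3.71 ± 0.94 and 3.13 ± 0.63). Nnat, an imprinted membrane protein, had 63.9, 71.2, 43.8 and 34.1 CPM in GC-adult and 58.0, 101.2, 914 and 436.5 in astrocytes (-3.47 ± 0.42, adjusted p = 3.0e-12). Snhg11 and Ppm1h were different. Astrocytes had between 11.5 and 13.9 CPM of Snhg11 at the 4 ages and between 3.29 and 12.3 of Ppm1h. The levels in GC-adult fell as given above (-2.99 ± 0.60 and -2.67 ± 0.67). They fell in GC-juv too. Snhg11 went from 104.5 and 161.2 CPM at P18 and P19 to 2.98 at P132, the last on few UMIs. Ppm1h fell there from 144.8 and 138.6 CPM to 47.6.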

How the data were processed

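The deposited values are whole counts per gene and cell, read as UMI counts from the values and the kit named in the labels, and the authors' second table gives age, line, sex of the pool and cluster of each cell. Cell Ranger and mm10 are named in the submitters' processing notes; the annotation, cell filters, doublet treatment and clustering method are not given in the sources used here, and no doublet caller was run here. Every cell had between 1114 and 19989 UMIs.

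UMIs were summed per cluster and age, and CPM computed from the sums. Tests used edgeR 4.0.16 (TMM, filterByExpr, quasi-likelihood F test, two-sided, Benjamini-Hochberg) in R 4.3.3, with DESeq2 1.42.0 as an alternative, after being tested on simulated data. An age entered with 20 or more cells. SE is the log2 difference divided by the square root of F. Log2 ratios within an age add 10 CPM. Positions are from GENCODE vM21. P-values of the stage test rest on the spread between ages, since the labels tie no cells to animals. In the interactions age was a block, and they rest on the spread between ages of the difference between classes. edgeR shares this spread over genes, so that a p-value does not rest on the gene's own values alone.

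The members, lists and rules were chosen with earlier results of these data known. Named genes were, within an age, the 10 each way whose ratio nearest 0 was largest. In the stage test they were the 10 each way with the largest change past an adjusted p of 0.05. These had 50 CPM or more on average, and their ages do not overlap. In the interactions they were the 3 each way under the same limits of p and CPM, without the rule on overlap. At P132 they were the 10 highest ratios to other clusters and the 10 highest variances. Marker and list genes were named too. A gene named by the rule is not reported here. Age paired the classes: same-age deviations correlated across genes with r of 0.309 to 0.438 (astrocytes) and 0.727 to 0.814 (GC-juv).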

Additional observations from a re-analysis of the deposited data

Results flagged for a closer look

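Of the 92 genes whose stage difference in GC-adult was unlike that in astrocytes, and the 1 unlike GC-juv, by a test of the difference itself, 7 were named by rule. Actb had a lower stage difference in GC-adult than in GC-juv (log2 -1.10). Both of these clusters were drawn on the same cells, and the part of that assignment was not tested. Against astrocytes, Hecw1 (3.83), Lrrtm4 (3.71) and Miat (3.13) had a higher one, and Nnat (-3.47), Snhg11 (-2.99) and Ppm1h (-2.67) a lower one. The levels of Hecw1, Lrrtm4 and Miat in astrocytes at the adult ages were between 0 and 3.43 CPM, so that these 3 values rest on few UMIs there. Of the 6 genes set against astrocytes, Nnat alone also passed in DESeq2 (adjusted p = 0.000232) and in edgeR without the replicate block (adjusted p = 0.00854). Without the block edgeR's adjusted p of the other 5 lay between 0.189 and 0.492. Actb passed in DESeq2 (adjusted p = 0.00213) and did not pass in edgeR without the block.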

How the results depend on the processing

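Of the stage test's 60 calls, RLE scaling gave 58, and adding P23 gave 54. The count was 167 without a filter on low counts, 319 with the 2 libraries of P132 as 2 samples and, chosen after seeing the data, 2 in cells with Actb under 1% of UMIs and 75 without mitochondrial genes and Malat1. Leaving out 1 age gave 73 to 181 calls (131 without P19, 181 without P120); a lone age of a stage is then assumed to vary like the others. Of the 20 named genes 8 missed the threshold without P18, 8 without P132, 3 without P19 and 18 with Actb under 1%; the cause was not tested. Values that changed sign were of markers that never passed: Prox1 (-0.44 to 0.087 without 1 age, 0.056 with Actb under 1%) and Dsp (-1.86 to 0.25 without 1 age). The interaction with astrocytes gave 1 call without the replicate block, 1 in DESeq2, 48 without a filter and 19 to 76 without 1 age (36, 19 and 35 without P18, P19 and P132). That with GC-juv gave 0 without the block and 28 without a filter; leaving out an age left no residual degrees of freedom and was not run. The share of GC-adult kept its direction, with differences of 70.9 to 86.9 percentage points. Within an age, 7 genes were higher and 9 lower with 50 CPM added, 39 and 34 without a filter, and 27 lower with Actb under 1%; leaving out 1 age gave 14 to 52 higher (52 without P132) and 18 to 32 lower (31 without P18, 32 without P19). Depth limits P23 and P120 most, with 70608 and 159644 summed UMIs.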
